A study of Mus musculus with 12 samples.

Results

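The genes of the Mastermind family (Maml1, Maml2 and Maml3), the DNA-binding protein Rbpj and the receptors Notch1 to Notch4 form the nuclear end of Notch signalling, and all 8 were taken by gene name from the deposited tables, which list 20409 genes. When a Notch receptor is cleaved, its intracellular domain enters the nucleus and binds Rbpj, which sits on DNA in a sequence-specific way. A Mastermind protein then binds the groove between them and brings in coactivators such as the acetyltransferases Ep300 and Crebbp. Without Notch, Rbpj binds corepressors instead and keeps target genes low.

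Insertions of a tagging cassette had been mapped in mouse embryonic stem cells (mESC; a diploid line derived from an originally haploid one) in a screen for transcriptional activators, a screen for transcriptional repressors and a screen for post-transcriptional gene regulators (PTGR). In ORFtag, a retrovirus carries a tag with a promoter and resistance gene before it and a splice donor after it. Where it lands upstream of an exon in the sense direction, the tag can be spliced to that exon, and the cell makes the protein fused to the tag. The question put to each gene was whether bringing its protein to a reporter changed the reporter's GFP, read as more cassette insertions at that gene in sorted than in unsorted cells.

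All groups were wild-type mESC, each screen in 1 clonal reporter line with the cassette in 3 reading frames. The activator screen used 7xTetO-pMYLPF-Puro-IRES-GFP at a locus on Chr15, the DNA-binding protein TetR as the tag, and sorting of cells that had gained GFP. The repressor screen used pEF1-BFP-7xTetO-pPGK-Puro-IRES-GFP at the same kind of locus, the TetR tag, and sorting of cells that had lost GFP. The PTGR screen used a randomly integrated Puro-IRES-GFP-10xBoxB reporter and the RNA-binding peptide λN as the tag. There, cells were sorted repeatedly for low GFP, Cre was used to cut out the boxB sites, and cells that regained GFP were kept. Each screen had 2 sorted and 2 unsorted libraries, 12 in all, which the study describes as biological replicates. The unsorted cells of each screen had been transduced and drug-selected in the same way but not sorted. Since every readout comes from 1 clone per screen and from tethering of a fusion protein, it describes that assay rather than the gene's place in signalling.

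Counting sense insertions at most 200 kb from their exon, the activator and repressor sorted libraries held 14705 to 22266 and the PTGR sorted libraries 58560 and 60980. The sum of the 6 unsorted libraries, here the background, was 1022126. A library's count for a gene is therefore also given per 10000 of its insertions. The repressor sorted replicates shared positions: 18.2% of those in replicate 1 and 26.0% of those in replicate 2 were present in the other, against 1.76% of replicate 1 for the activator and 0.546% for the PTGR screen. Sorted and unsorted libraries also shared positions, with 19.5% of those in activator sorted replicate 2 present in unsorted replicate 2 of that screen and 18.2% of those in PTGR sorted replicate 1 present in PTGR unsorted replicate 1. Shared positions in the repressor replicates may not be separate events, which was not tested, and values with each position counted once are given beside the repressor results.

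The splice acceptors that took the insertions of the genes called below are shown because they fix where the fusion starts. Each is 30 bases in the direction of transcription from GRCm38 (the assembly also named mm10), the last 20 bases of the intron in lower case and the first 10 bases of the exon in capitals.
Maml1 exon 2: tgtgttccaatgtttttcagCATCTTCATG
Maml2 exon 2: tatttcattttgtctttcagCTCCAGGGCT
Maml2 exon 3: tcctcctctcccttctacagGATCAACACA
Maml3 exon 2: ctctcccatttcttttccagCTGCAAGAGA
Maml3 exon 3: ctttcttctgttccctctagGAGCAGCACG
Rbpj exon 2: acctttctttttctttcaagCTCCTGGCCT
The windows lie at chr11:50267001-50267030 (minus strand), chr9:13619970-13619999 and chr9:13697154-13697183 (plus strand), chr3:51857067-51857096 and chr3:51697834-51697863 (minus strand) and chr5:53600681-53600710 (plus strand). All 6 introns end in AG. Exon numbers are those of the transcripts Maml1-201, Maml2-202, Maml3-202 and Rbpj-208 of GENCODE vM21. The Mastermind acceptors of exons 2 and 3 all lie between whole codons (phase 0), whereas the Rbpj exon is untranslated and ends before the start codon.

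In the activator screen all 3 Mastermind genes were called, with odds of an insertion in sorted cells 34.0 times those in the background for Maml1, 68.6 times for Maml2 and 111 times for Maml3, while Rbpj and the 4 Notch receptors were not. A gene was called when a one-sided Fisher's exact test on summed insertions gave an adjusted p below 0.001 with a log2 odds ratio of at least 1. The percentage of tested genes called was 4.64, and 4 of the 8 genes had the 3 sorted insertions needed for a test. The median log2 odds ratio of all tested genes was -0.14.

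Maml2 had by far the most of these insertions. It held 41 and 92 in the sorted replicates, 11 and 23 in the unsorted libraries of the same screen, 4 and 9 in the repressor and 13 and 2 in the PTGR unsorted libraries. Per 10000 insertions this was 23.6 and 62.6 in sorted cells and between 0.230 and 1.11 in the 6 unsorted libraries, so the groups did not overlap, although the sorted replicates differed from each other. The log2 odds ratio was 6.10 ± 0.22 (SE from counting error, 133 sorted and 62 background insertions, 95% interval 5.66 to 6.53, adjusted p = 1.80e-149, one-sided Fisher's exact test).

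Maml1 held 5 and 11 insertions in the activator sorted replicates and 1 to 6 in each unsorted library. The sorted replicates stood at 2.87 and 7.48 per 10000 and the unsorted libraries at 0.0482 to 0.339, again without overlap. This gave a log2 odds ratio of 5.09 ± 0.52 (SE, 16 sorted and 15 background insertions, adjusted p = 3.58e-15, one-sided Fisher's exact test).

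Maml3 was rarely tagged within 200 kb without selection, with no insertion in 4 of the 6 unsorted libraries, 3 in activator unsorted replicate 2 and 1 in PTGR unsorted replicate 2. The sorted replicates held 5 and 9, or 2.87 and 6.12 per 10000, above the highest unsorted value of 0.185. Its log2 odds ratio was 6.80 ± 0.82 (SE, 14 sorted and 4 background insertions, adjusted p = 5.69e-17, one-sided Fisher's exact test), and its interval of 5.20 to 8.40 is wide because of the 4 background insertions. Each of the 3 genes was called in either sorted replicate alone, with the highest adjusted p at 0.000305 for Maml1 in replicate 1 (one-sided Fisher's exact test). They were also called by edgeR and by DESeq2 comparing the 2 sorted with the 2 unsorted activator libraries (percentages of tested genes called 1.54 and 3.69), tests that take in the spread between replicates.

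Rbpj, by contrast, held 5 and 1 insertions in activator sorted cells and 91 and 106 in the unsorted cells of that screen. At 2.87 and 0.680 per 10000 it lay below all 6 unsorted libraries, which ranged from 3.33 to 6.71. The log2 odds ratio was -1.56 ± 0.59 (SE, 6 sorted and 565 background insertions), and a two-sided Fisher's exact test over all genes gave p = 0.00311 and an adjusted p of 0.27, which did not pass 0.05. The percentage of all genes lower in sorted cells at that level was 0.0328. Rbpj insertions in the reversed direction, which cannot make the fusion, were also fewer, with 8 sorted and 607 background insertions (log2 odds ratio -1.16 ± 0.51, SE).

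The Notch receptors were nearly absent from activator sorted cells. Notch1 held 2 and 0 insertions there against 80 in the background, Notch3 held 0 and 1 against 12, and Notch2 and Notch4 held none against 45 and 32. A count of 0 allows up to 3 insertions, so these genes could not be distinguished from the background at this depth.

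**Figure D1:**
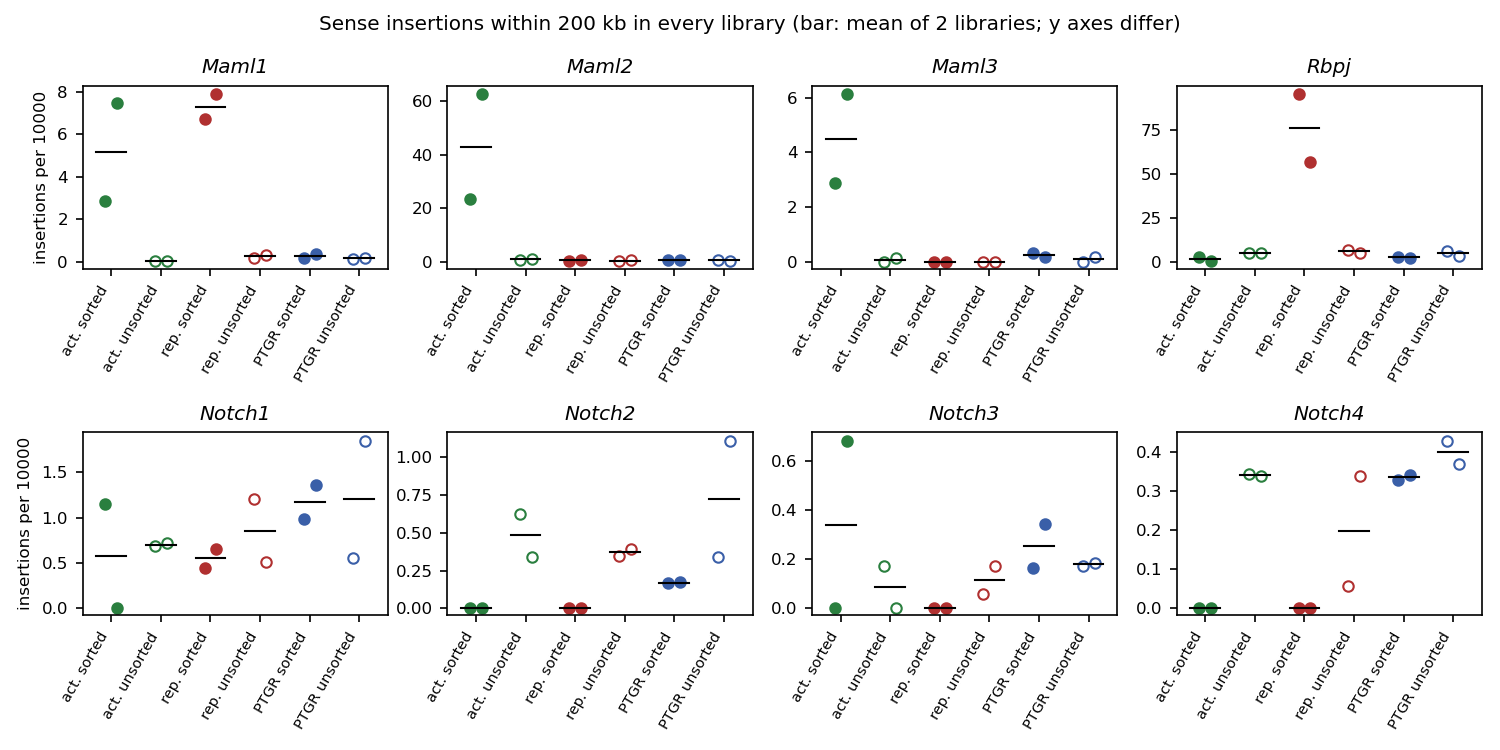
Sense insertions within 200 kb of the assigned exon, per 10000 insertions of the library (linear axes that differ between genes), for the 8 genes in each of the 12 libraries. Points are single libraries (filled, sorted; open, unsorted) and bars the mean of the 2 libraries of a group. Maml2 stands at 23.6 and 62.6 in activator sorted cells and Rbpj at 95.2 and 56.6 in repressor sorted cells, and the Notch receptors stay below 2 in every library.

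In the repressor screen Rbpj and Maml1 were called, and no other gene of the 8 had enough sorted insertions for the test. The percentage of tested genes called was 8.18, and the median log2 odds ratio of tested genes was -0.39.

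Rbpj held 212 and 86 insertions in the repressor sorted replicates, 117 and 91 in the unsorted libraries of that screen, and 18 to 142 in the other unsorted libraries. It stood at 95.2 and 56.6 per 10000 in sorted and at 3.33 to 6.71 in unsorted cells, so the lower sorted replicate was still far above every unsorted library. The log2 odds ratio was 3.86 ± 0.10 (SE, 298 sorted and 565 background insertions, 95% interval 3.65 to 4.06, adjusted p = 1.86e-200, one-sided Fisher's exact test). Of the 298 insertions, 28 positions were found in both sorted replicates, which left 270 distinct positions.

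Maml1 held 15 and 12 insertions in repressor sorted cells and 3 and 6 in the unsorted cells of the same screen. Its levels of 6.74 and 7.89 per 10000 were close to each other and above all unsorted libraries. The log2 odds ratio was 5.62 ± 0.46 (SE, 27 sorted and 15 background insertions, adjusted p = 9.91e-28, one-sided Fisher's exact test). The 27 insertions lay at 23 distinct positions, 4 of which both replicates shared, and 5 were also found in the unsorted cells of the same screen. With each position counted once over the replicates, a setting added after the data were seen, the log2 odds ratio was 5.61 for Maml1 and 3.89 for Rbpj, and both were called. They were also called by edgeR and DESeq2 within the repressor libraries (percentages of tested genes called 2.58 and 6.4). In these fits shared positions counted in both replicates, so the spread between replicates may be understated, which was not tested.

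Maml2 held 1 insertion in each repressor sorted replicate, at the same position, and Maml3 held none, against 62 and 4 in the background. Notch1 held 1 and 1, and Notch2, Notch3 and Notch4 held none. Of the 3 Mastermind genes, therefore, Maml1 alone was called in both screens.

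In the PTGR screen, whose sorted libraries were the deepest, 7 of the 8 genes could be tested and none was called by the Fisher test (percentage of tested genes called 0.666). At an unadjusted p below 0.05, 1 gene passed, Maml3, which held 2 and 1 insertions in sorted cells (log2 odds ratio 2.68 ± 1.10, SE, adjusted p = 0.381, one-sided Fisher's exact test). None of the 8 was called by edgeR or DESeq2 on sorted against unsorted cells of this screen either (percentages called 0.342 and 1.06).

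Maml1 held 1 and 2 insertions in PTGR sorted cells and Maml2 held 3 and 4. Their log2 odds ratios were 0.77 ± 0.91 and -0.05 ± 0.58 (SE). Notch1 held 6 and 8 against 13 and 10 in the matching unsorted libraries (log2 odds ratio 0.58 ± 0.42, SE, adjusted p = 0.583, one-sided Fisher's exact test), the most insertions of any receptor in sorted cells. Notch3 held 1 and 2, Notch4 2 and 2, and Notch2 1 and 1.

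Rbpj went the other way in PTGR sorted cells. It held 15 and 14 insertions, or 2.46 and 2.39 per 10000, and both values lay below all 6 unsorted libraries, of which the lowest was PTGR unsorted replicate 2 at 3.33. The log2 odds ratio was -1.19 ± 0.27 (SE, 29 sorted and 565 background insertions, adjusted p = 0.000448, two-sided Fisher's exact test over all genes). The percentage of genes lower at an adjusted p below 0.05 was 0.243. With the 2 PTGR unsorted libraries as the only background, edgeR gave an adjusted p of 0.999, and with all 6 unsorted libraries it gave 0.0119. The decrease thus passed on summed counts but not in edgeR within the screen. It was not limited to the sense direction. Reversed Rbpj insertions numbered 39 in PTGR sorted cells and 607 in the background (log2 odds ratio -0.86 ± 0.24, SE). The cause of the decrease was not tested.

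**Figure D2:**
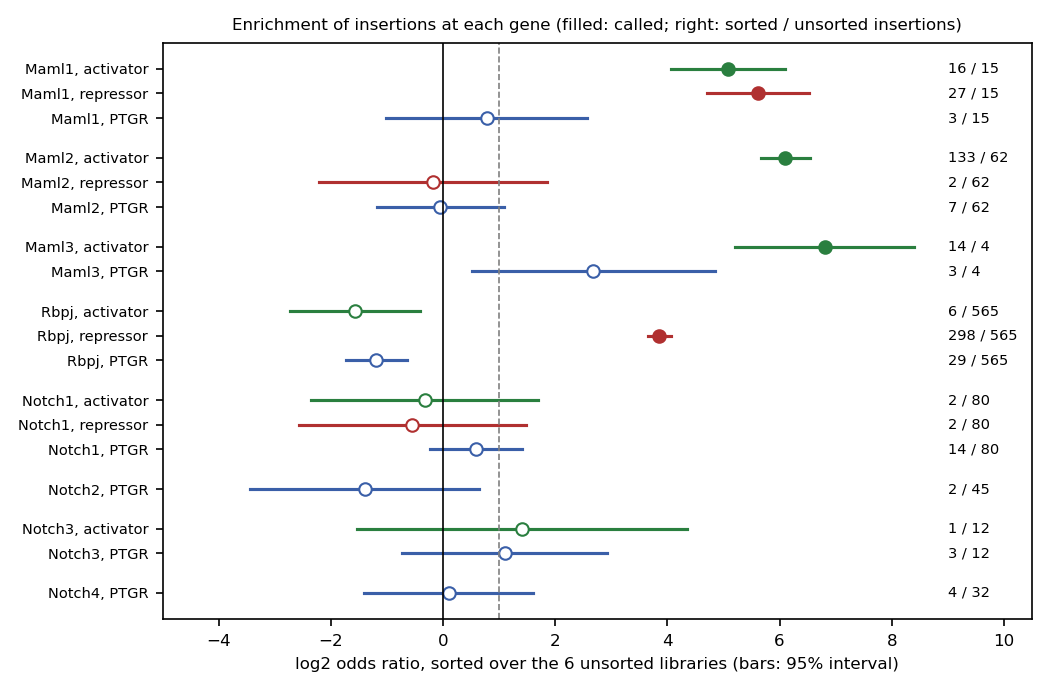
Log2 odds ratio of sense insertions within 200 kb, sorted against the 6 unsorted libraries, for each gene and screen with sorted insertions (bars, 95% interval from counting error). The Mastermind genes lie between 5.09 and 6.80 in the activator screen, Maml1 at 5.62 and Rbpj at 3.86 in the repressor screen, and Rbpj at -1.19 in the PTGR screen.

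Because a call in one screen and not in another does not show that the screens differ, the sorted libraries of each pair of screens were compared directly by two-sided Fisher's exact tests over all genes. Between the activator and repressor screens, 3 of the 8 genes differed at an adjusted p below 0.05 (percentage of all tested genes 6.44). Maml2 was higher in activator sorted cells by 6.28 ± 1.03 on the log2 scale (SE, adjusted p = 4.56e-40, Fisher's exact test). Maml3, with 14 insertions against 0, was at least 5.45-fold higher, taking 3 insertions over the group as the limit of a zero count (adjusted p = 0.000449, Fisher's exact test). Without repressor sorted replicate 1 this gene no longer passed. Rbpj was lower in activator than in repressor sorted cells, with a log2 odds ratio of -5.42 ± 0.59 (SE, adjusted p = 8.34e-69, Fisher's exact test).

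Maml1, called in both, had a log2 odds ratio of -0.53 ± 0.46 (SE, adjusted p = 0.741, two-sided Fisher's exact test) between activator and repressor sorted cells. With this error, differences in either direction, including some larger than the error itself, could go undetected.

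Against PTGR sorted cells, all 3 Mastermind genes were higher in activator sorted cells (percentage of all tested genes that differed 1.69). The log2 odds ratios were 4.31 ± 0.91 for Maml1, 6.15 ± 0.56 for Maml2 and 4.12 ± 0.92 for Maml3 (SE). Their adjusted p values were 7.68e-07, 2.80e-77 and 1.11e-05 (two-sided Fisher's exact test). In repressor sorted cells, Rbpj was higher than in PTGR sorted cells by 5.05 ± 0.28 and Maml1 by 4.84 ± 0.88 on the log2 scale (SE, percentage of all tested genes that differed 3.24). These contrasts compare sorted libraries only. An edgeR interaction of screen and sorting over 8 libraries, which also takes in the unsorted cells, passed for Maml2 in both activator contrasts and for Rbpj in both repressor contrasts, and for neither Maml1 nor Maml3.

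The insertions called for Maml2 were not limited to the 200 kb allowed between insertion and exon. A further 24 and 53 sense insertions lay beyond it in the activator sorted replicates, against 21 in all 6 unsorted libraries. Of these 21, 6 and 10 were in the activator unsorted libraries, which alone were not used as the background for this distance class. Per 10000 insertions beyond 200 kb, the sorted replicates stood at 44.4 and 175 and the activator unsorted libraries at 0.963 and 1.41. Tested among all genes in that distance class (percentage called 0.473), Maml2 had a log2 odds ratio of 7.30 ± 0.36 (SE, adjusted p = 2.73e-103, one-sided Fisher's exact test). This comparison was added after the data were seen. The gene spans 411432 bp on chr9, and 73 of the 77 lay in its introns. All 77 lay at 202 to 323 kb from exon 2, with a median of 297 kb. The 21 in the unsorted libraries lay at 296 to 324 kb, also with a median of 297 kb.

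For exon 2 of Maml2 the distances ran from below 100 kb to beyond 300 kb, but not evenly. Beyond 200 kb, the unsorted insertions began at 295.9 kb, and the activator sorted ones at 201.7 kb with a median of 296.8 kb. Activator sorted replicates 1 and 2 held 6 and 7 insertions at up to 100 kb, 30 and 41 at 100 to 200 kb, 23 and 48 at 200 to 300 kb and 1 and 5 farther away. The unsorted libraries held 7, 18, 19 and 2 in the same classes, so from 100 to 300 kb each sorted replicate alone held more than all 6 unsorted libraries together.

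Maml3, a gene of 419170 bp on chr3, had 7 and 2 sense insertions beyond 200 kb in activator sorted cells and 73 in the unsorted libraries. Its log2 odds ratio there was 2.40 (adjusted p = 0.00903, one-sided Fisher's exact test), which did not meet the threshold of 0.001. Of the 73 unsorted insertions, 71 lay upstream of the gene, whereas 2 of the 9 sorted ones did. No sense insertion of Maml1 or of a Notch receptor lay beyond 200 kb in any library. In the repressor and PTGR screens none of the 8 genes was called at these distances (percentages of tested genes called 1.75 and 0.37 by Fisher's test), and none had an unadjusted p below 0.05.

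**Figure D3:**
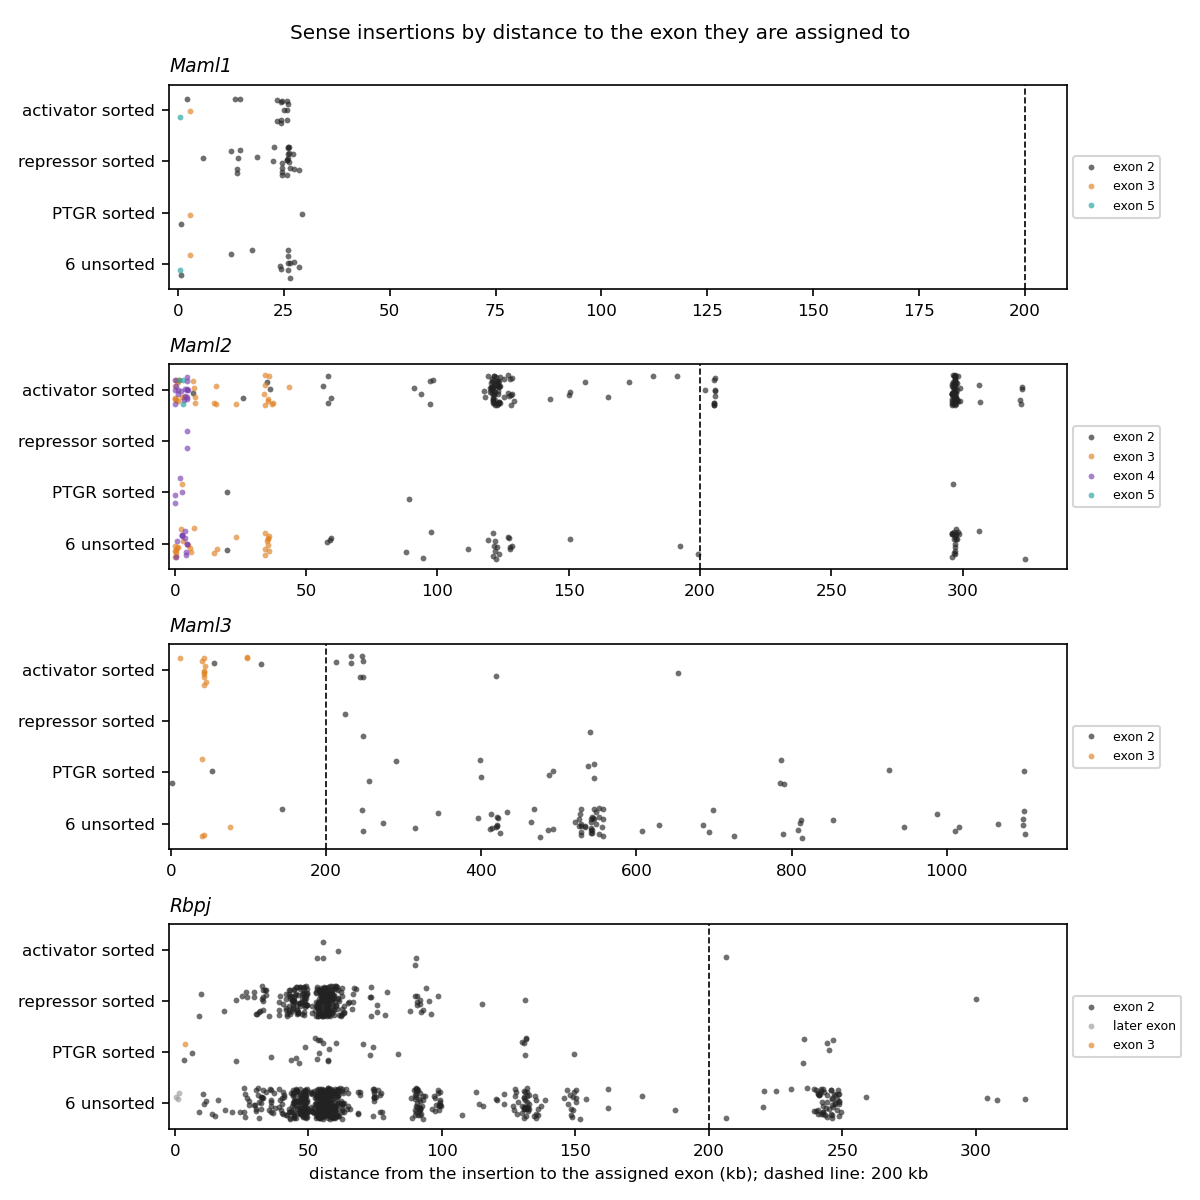
Distance in kb from each sense insertion to its assigned exon for Maml1, Maml2, Maml3 and Rbpj, 1 point per insertion and library, coloured by exon (the dashed line marks 200 kb). In activator sorted cells Maml2 has 133 insertions left of the line and 77 right of it, and in repressor sorted cells Rbpj has 298 left of it and 1 right of it.

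The exon that takes the insertion sets how much of the protein is fused. An insertion at exon 2 of Maml1 leaves out 112 of 1020 codons, and 14 of the 16 activator and all 27 repressor insertions were of this kind, as were 13 of 15 in the background. The N-terminal part of the Mastermind proteins is the one known to contact Notch and Rbpj. Fusions from exon 2 keep 89.0% of the coding sequence of Maml1, 85.8% of that of Maml2 and 86.3% of that of Maml3. Fusions from exon 3 keep 42.7%, 37.8% and 40.0%.

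Both kinds of fusion were recovered for Maml2. At exon 2 it had 36 and 48 insertions within 200 kb in the activator sorted replicates and 25 in the background, and at exon 3 it had 2 and 27 against 26. The log2 odds ratios for single acceptors were 6.74 ± 0.33 at exon 2, 5.15 ± 0.39 at exon 3 and 5.62 ± 0.56 at exon 4 (SE), where 3 and 14 insertions stood against 11. At exon 5, replicate 2 held 3 and the background none.

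Exon 3 held 21.8% of the Maml2 insertions in activator sorted cells (29 of 133, 95% Wilson interval 15.6 to 29.6) and 41.9% in the background (26 of 62, 30.5 to 54.3). This share was lower in replicate 1, at 4.88% (2 of 41), than in replicate 2, at 29.3% (27 of 92). The exon compared was the one with the most background insertions, here 26 against 25 at exon 2, a choice that can raise the background share. Insertions beyond 200 kb, which for Maml2 were all assigned to exon 2 (77 activator sorted and 21 background), were not counted. The adjusted p over the 9 comparisons of this kind was 0.0530 (two-sided Fisher's exact test), and none of the 9 passed 0.05 (unadjusted, 1 of them did). Without replicate 2 the adjusted p was 0.000203 and without replicate 1 it was 0.426 (Fisher's exact test), so the size of the difference depended on the replicate.

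For Maml3, 12 of 14 activator insertions within 200 kb went to exon 3, with 3 and 9 per replicate against 3 in the background, and the fusion there keeps 40.0% of the coding sequence. Exon 2 took the other 2 and all 9 of those beyond 200 kb. The deposited lists give number 2 to both acceptors, since exon 3 of Maml3-202 is exon 2 of Maml3-201, so the comparison of exon shares says nothing about Maml3.

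At Rbpj, 297 of 298 repressor insertions and 561 of 565 background insertions were assigned to the untranslated exon 2 of Rbpj-208. That exon starts 100 bases before the start codon in the spliced transcript, and the annotated coding sequence of 507 codons is complete downstream of it. In repressor sorted cells 283 of the 298 lay in introns of the gene. The median distance to the exon was 55.1 kb in repressor sorted cells and 55.9 kb in the background.

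**Figure D4:**
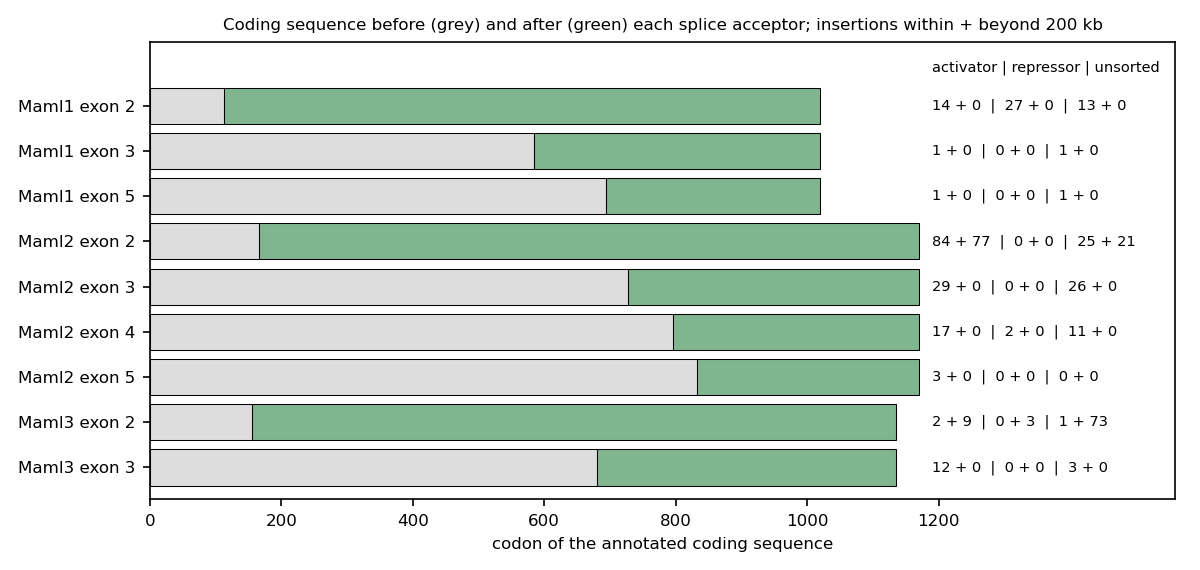
Coding sequence in codons before (grey) and after (green) each splice acceptor that took insertions of Maml1, Maml2 and Maml3, with the numbers of insertions in activator sorted, repressor sorted and unsorted cells, within plus beyond 200 kb. Exon 2 of Maml2 has the most, 84 plus 77 in activator sorted cells against 25 plus 21 in the unsorted libraries.

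A cassette in the reversed direction cannot make the fusion and served as a control. Among reversed insertions within 200 kb, no gene of the 8 was called in any screen by Fisher's test, where the percentages of tested genes called were 3.14, 5.61 and 0.5 in the activator, repressor and PTGR screens. Only Rbpj had the 3 sorted insertions needed for this test in the activator and repressor screens, so no Mastermind gene could be called there. In the PTGR screen 6 of the 8 could be tested. The reversed log2 odds ratios of Rbpj were below 0, at -1.16, -1.22 and -0.86 in the activator, repressor and PTGR screens. At an unadjusted p below 0.05, 1 of the 8 passed for the activator screen, none for the repressor screen and 2 for the PTGR screen. The 1 in the activator screen was Maml1, with 2 reversed insertions in sorted cells and 4 in the background (log2 odds ratio 4.09, p = 0.0114, one-sided Fisher's exact test).

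The sense share compares both directions within each gene. In activator sorted cells all 133 Maml2 insertions within 200 kb were sense (100%, 95% Wilson interval 97.2 to 100), against 57.4% of 108 in the background (48.0 to 66.3, adjusted p = 6.68e-19 over 12 comparisons, two-sided Fisher's exact test). The share was 100% in both sorted replicates and between 33.3% and 76.7% in the unsorted libraries. All 14 Maml3 insertions in activator sorted cells were sense (78.5 to 100), against 28.6% of 14 in the background (adjusted p = 0.000610, two-sided Fisher's exact test). With a maximum distance of 50 kb, which left 10 and 4 insertions, the adjusted p for Maml3 was 0.148.

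In repressor sorted cells 97.4% of 306 Rbpj insertions were sense (94.9 to 98.7), against 48.2% of 1172 in the background (adjusted p = 1.40e-67, two-sided Fisher's exact test). In activator and PTGR sorted cells the Rbpj share was 42.9% of 14 and 42.6% of 68, neither of which differed from the background in the test. For Maml1 the background was already 78.9% sense, and the shares of 100% of 27 in repressor and 88.9% of 18 in activator sorted cells did not pass (adjusted p = 0.0713 and 0.880, Fisher's exact test). Intervals and limits of zero counts cover counting error only.

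**Figure D5:**
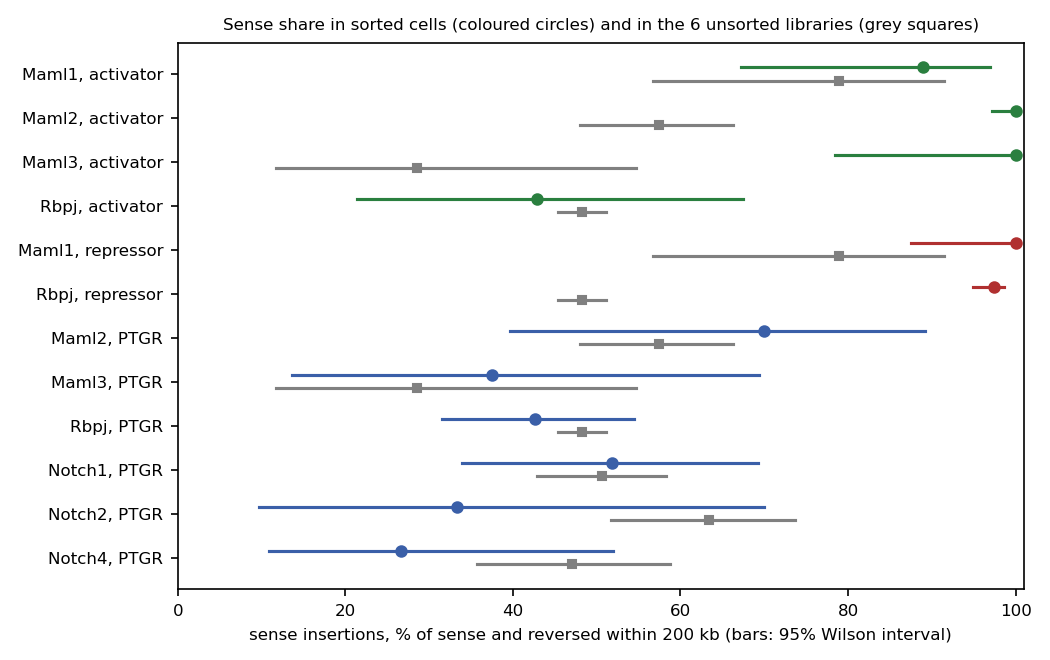
Sense insertions as a percentage of sense and reversed insertions within 200 kb for the 12 tested pairs of gene and screen, in sorted cells (coloured circles) and in the 6 unsorted libraries (grey squares), with 95% Wilson intervals. Maml2 and Maml3 in the activator screen reach 100% against 57.4% and 28.6%, and Rbpj in the repressor screen reaches 97.4% against 48.2%.

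Reversed insertions beyond 200 kb were called for Maml3 in the activator screen, with 23 and 56 in sorted cells and 118 in the background (log2 odds ratio 4.54, adjusted p = 2.54e-66, one-sided Fisher's exact test, percentage called 3.18). In the sense assignment 78 of these 79 belong to Foxo1, a forkhead transcription factor gene that lies 163 kb from Maml3 on the opposite strand. Foxo1, named after its values were seen, held 22 and 56 sense insertions in activator sorted cells and 42 in the background, with a log2 odds ratio of 5.89 ± 0.28 (SE, adjusted p = 4.99e-85, one-sided Fisher's exact test). No Maml3 sense insertion enters that count. No gene of the 8 was called for reversed insertions beyond 200 kb in the other screens (percentages of tested genes called 5.81 for repressor and 0.475 for PTGR, Fisher's test), where 0 and 1 had an unadjusted p below 0.05.

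The other genes of the pathway were read from the same tests, as a list of 64 genes of which 63 are in the deposited tables. In the activator screen 12 of them could be tested and 2 were called, both acetyltransferase coactivators of the Notch complex (percentage of all tested genes called 4.64). Of the 7 genes in the coactivator group, 3 could be tested. Ep300 held 389 sorted and 290 background insertions (log2 odds ratio 5.43 ± 0.11, SE) and Crebbp 47 and 184 (3.03 ± 0.24, SE, adjusted p = 2.61e-23, one-sided Fisher's exact test). Kat2b, another acetyltransferase gene of that group, was tested and not called, with 6 and 559 and a log2 odds ratio below 0 (-1.55 ± 0.59, SE). Among the tested genes not called, Ncor1, a corepressor, had 21 sorted insertions (log2 odds ratio -0.58), and Poglut1, which glycosylates the receptors, and Aph1a, a γ-secretase subunit, had -0.45 and -0.08. The median over the 12 was 0.03, against -0.14 over all tested genes. In each screen such medians leave out genes with fewer than 3 sorted insertions. A gene with few background insertions therefore enters only where it is high, and differences between these medians were not tested.

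In the repressor screen 14 genes of the list could be tested and 3 were called, all from the group of Rbpj corepressors or inhibitors (percentage of all tested genes called 8.18). That group has 14 genes in the deposited tables, of which 7 could be tested. Others of the group had too few sorted insertions for the test, some with log2 odds ratios below 0, as low as -2.33. Ncor1 held 392 sorted and 998 background insertions (log2 odds ratio 3.44 ± 0.09, SE), the corepressor Spen 150 and 255 (4.01 ± 0.15, SE), and the histone demethylase gene Kdm1a 29 and 42 (4.24 ± 0.35, SE). The acetyltransferase gene Kat2b and Poglut1 had log2 odds ratios of -1.19 and -0.999. The median over the 14 was 0.68, against -0.39 over all tested genes, both only for genes with at least 3 sorted insertions. No ligand gene reached 3 sorted insertions in either the activator or the repressor screen.

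In the PTGR screen 35 of the list could be tested and 3 were called (percentage of all tested genes called 0.666). These were the ubiquitin ligase gene Mib2 (153 sorted and 166 background insertions, log2 odds ratio 2.98 ± 0.16, SE), Ep300 (177 and 290, 2.39 ± 0.14, SE) and Spen (84 and 255, 1.49 ± 0.18, SE). Spen held 20 and 64 insertions in the sorted replicates, or 3.28 and 10.9 per 10000, and the first of these lay within the unsorted range of 1.78 to 3.61. It was not called without PTGR sorted replicate 2, nor by DESeq2 or by edgeR without a replicate block when set against the PTGR unsorted libraries. Ncor1, Kat2b and Poglut1, with 102, 59 and 51 sorted insertions, had log2 odds ratios of -0.19, -0.15 and 0.00025. The median over the 35 was 0.41, against 0.14 over all tested genes, with the same restriction. Crebbp, with 22 and 184, had 0.03 ± 0.33 (SE) in this screen.

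The genes with the pattern most like each called gene were found by Euclidean distance over the 6 sorted libraries of the log2 level against the background, among 8988 genes. Closest to Maml2 were Tfe3 (distance 1.01), Foxo3 (1.32) and Atxn7l3 (1.38), of which Tfe3 held 55 and 94 insertions in activator sorted cells and 1 and 1 in repressor sorted cells. Closest to Rbpj were Tgif1 (0.98), Smarcad1 (1.21) and Jdp2 (1.23), of which Tgif1 held 68 and 43 insertions in repressor sorted cells and 1 and 0 in activator sorted cells. For Maml1 and Maml3, with few background insertions, the nearest genes lay farther off. These were Gon4l, Zfp874a and Bcl9l at 4.13 to 4.99 for Maml1, and Tfeb, Faf1 and Mrtfb at 4.19 to 4.75 for Maml3. Gon4l, like Maml1, had insertions in both activator (45 and 41) and repressor (63 and 27) sorted cells.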

How the data were processed

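The 12 libraries, 2 per group, hold cassette positions found by inverse PCR and sequencing in mESC. Per the study's methods, the authors trimmed reads with Trim Galore 0.6.0, aligned the first mates to mm10 with Bowtie2 and filtered them with SAMtools 1.9 for duplicates and low mapping quality. The exon nearest downstream, first exons left out, of a GENCODE protein-coding transcript gave the insertion its gene. The deposited lists give on each line an insertion's position and its distance to the exon (another kind of value, with no read number, so the depth behind an insertion is unknown). In both repressor unsorted libraries every position is on more than 1 line (474850 lines for 237410 positions in replicate 1 and 486554 for 243263 in replicate 2). The authors also deposited pooled counts per gene, which equalled the sums made here for all 8 genes in the background, activator and repressor columns and for 3 of 8 in the PTGR column, where 12.7% of the positions of sorted replicate 2 are listed more than once. Columns of the authors' odds ratios, adjusted p-values and hit calls were not used.

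Here each position was counted once per library, and within 200 kb of the exon, which gave 14705 to 233799 insertions per library. Sorted replicates were summed and tested against the sum of 6 unsorted libraries (Fisher's exact test, one-sided). Benjamini-Hochberg adjustment ran over genes that had 3 or more insertions in sorted cells, and calls needed an adjusted p below 0.001 together with a log2 odds ratio of 1 or more. This test adds up libraries, so its p-values reflect counting error, and edgeR 4.0.16 (quasi-likelihood) and DESeq2 1.42.0 were run as alternatives that take in the spread between replicates, which with 2 libraries a group is poorly measured. Screens were compared with two-sided Fisher's exact tests over genes with at least 3 insertions. Shares of exons and of sense insertions were tested where a gene had at least 5 sorted insertions. Shares have 95% Wilson intervals.

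Named were all 8 genes, every called gene of the pathway list, up to 3 more per screen with the most sorted insertions, and the 3 genes of most similar pattern (with at least 20 background insertions) for each called gene. Kat2b was also named in the activator screen, after its values were seen, as a further acetyltransferase coactivator of the pathway list. Of that list (ligands, receptor modification and cleavage, endocytosis and turnover, coactivators, Rbpj corepressors or inhibitors, and target transcription factors), Nrarp was not in the tables used. A further gene of the list is counted in its totals, but its values are not reported here. Members, lists and tests were chosen with earlier results of these data known. Sequences and exons are from GRCm38 and GENCODE vM21, not the authors' release. On simulated data with 200 genes changed, the Fisher test recovered 100% of genes raised 16-fold in each screen and 22.5%, 37.1% and 61.5% of those raised 4-fold in the activator, repressor and PTGR screens, with 0 false calls among 20409 genes. These counts were drawn with counting error only, without spread between replicates or shared positions, so they do not measure false calls in the real libraries. The changed genes had at least 20 background insertions, more than Maml1 (15) and Maml3 (4). Alternatives covered the background, the test, the minimum count, the distance, repeated positions, zero counts, each library left out and the threshold.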

Additional observations from a re-analysis of the deposited data

Results flagged for a closer look

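Between screens, 8 differences in sorted insertions passed a two-sided Fisher's exact test over all genes. Activator against repressor sorted cells gave adjusted p values of 4.56e-40 for Maml2, 0.000449 for Maml3 and 8.34e-69 for Rbpj. Activator against PTGR sorted cells gave 7.68e-07 for Maml1, 2.80e-77 for Maml2 and 1.11e-05 for Maml3. Repressor against PTGR sorted cells gave 2.64e-12 for Maml1 and 8.83e-146 for Rbpj. The contrasts share sorted libraries.

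Beyond 200 kb, the distance class that the study left out, Maml2 had a log2 odds ratio of 7.30 in the activator screen for sense insertions. Maml3 had one of 4.54 there for reversed insertions, nearly all of which are sense insertions of Foxo1.

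Among the 6 unsorted libraries, Notch4 had 1 insertion in repressor unsorted replicate 1, or 0.0574 per 10000, and 0.337 to 0.428 per 10000 in the others. The gap to the nearest library was 0.755 of the range, above the 95% critical value of Dixon's test. With 11 such sets of values examined, about 1 in 20 would pass by chance.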

How the results depend on the processing

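Of 182 recomputed counts of called genes, 168 stayed within 1.5 times the value given and 14 did not. The calls of Maml1, Maml2 and Maml3 in the activator screen and of Maml1 and Rbpj in the repressor screen held in the 23 alternatives run for each within 200 kb or over all distances, with the exception, after seeing the data, of insertions beyond 200 kb alone, where 1 of the 8 genes was called in the activator screen (Maml2), 0 in the repressor screen, and 0 of the pathway list in each screen, and Maml3 fell to 2.40. Over the alternatives the log2 value ranged from 4.29 to 6.86 for Maml1, 5.28 to 6.70 for Maml2 and 3.35 to 8.47 for Maml3 in the activator screen, and from 4.81 to 6.08 for Maml1 and 3.36 to 4.14 for Rbpj in the repressor screen.

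The pathway list gave 6 repressor calls in place of 3 with DESeq2 and with an adjusted p below 0.05, and 5 with the two-sided test. Leaving out single libraries gave 3 to 5 there, the 5 without repressor sorted replicate 2. Between activator and PTGR sorted cells, leaving out single libraries gave 1 to 3 of the 8 genes, the 1 (Maml2) without activator sorted replicate 2. The edgeR interaction gave 1 (Maml2), and 1 (Rbpj) between repressor and PTGR. Exon choice passed for 1 gene, Maml2, with the activator unsorted libraries alone as background, and for 0 to 1 with a sorted replicate left out (1 without replicate 2).

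In the PTGR screen 2 log2 values near 0, never called, changed sign. Maml2 (-0.05) was 0.17 against its own background, 0.25 with edgeR without and 0.26 with the replicate block, 0.36 with DESeq2, 0.42 within 50 kb, 0.51 with every line counted, 0.037 with 0.5 added, 0.060 with positions within 5 bp merged, and -0.30 to 0.29 with single libraries left out (0.17 without PTGR sorted replicate 1 and 0.29 without activator unsorted replicate 2). Notch4 (0.10) was -0.32 against its own background, -0.24 and -0.21 with edgeR without and with the block, -0.20 with DESeq2, and -0.13 to 0.26 with single libraries left out. The causes were not tested.

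The labels do not say whether replicate numbers pair sorted with unsorted libraries. The deviations of libraries with the same number correlated at 0.04, 0.01 and 0.20 across genes in the activator, repressor and PTGR screens. In the activator and PTGR screens each sorted library shared more positions with the unsorted library of its own number (4.96% to 19.5%) than with the other (0.342% to 2.25%), a hint of pairing from the data. In the repressor screen both sorted replicates shared more with unsorted replicate 2. Sorted replicate 1 shared 8.17% with unsorted replicate 1 and 9.86% with unsorted replicate 2, and sorted replicate 2 shared 5.03% and 8.23%. With the number as a block, edgeR changed no call among the 8 genes, and of the pathway list it added Spen in the PTGR screen and dropped Cir1 in the repressor screen. Few insertions limit Maml1, Maml3 and the Notch receptors most.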
